A study of Drosophila melanogaster with 16 samples.

Results

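Neuropeptide precursor genes encode the short signalling peptides of neurons, neurosecretory cells and endocrine cells of the gut. The members described here are a list of 35 such precursor genes of Drosophila melanogaster, chosen by name, of which 34 were found among the 17489 genes of the count tables. Nplp2 was not matched and is not analysed here. A typical precursor is cut by prohormone convertases, trimmed, often amidated, packed into dense core vesicles and released. The mature peptide acts in most cases on a G protein-coupled receptor of another cell. Burs and Gpb5 of the list encode hormone subunits instead. In the fly head and gut these peptides regulate feeding, water balance, sleep, circadian rhythm and moulting, and several of them, among them sNPF, NPF, AstA, Hug and Dsk, act on hunger, satiety or feeding.

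RNA was sequenced from heads of adult male flies that carried the transgenes Gr5a>UAS-Rpl3-3XFLAG, in which the promoter of Gr5a, a sweet taste receptor gene, drives a ribosomal protein that carries a FLAG tag. Ribosomes with the tag were pulled down and their mRNA is called the Gr5a fraction. RNA of the whole lysate of the same kind of heads, 300 per replicate, is called the input. All groups had this genotype, and no library without the tag or without the driver was among the 16 analysed. The Gr5a fraction was available for flies that ate sugar diet and then returned to control diet (SD>CD, 2 libraries), for flies that ate only control diet over the same 14 days (CD>CD, 2 libraries), and for flies on control diet for 7 days (CD7, 3 libraries), on sugar diet for 3 days (SD3, 2 libraries) or on sugar diet for 7 days (SD7, 2 libraries). The input was available for SD7 (2 libraries) and CD7 (3 libraries). The sugar diet held 30% sucrose and the control diet 5%, and by the labels diets began when flies were 5 days old. The labels give no separate starting day for SD3, and the study describes the SD3 and SD7 flies as matched in age.

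Gene counts per library ranged from 22901154 to 55290069. Both SD>CD libraries carry a title that reads CD>CD and a condition label that names the diet switch, and the condition label was followed for every SD>CD value. The sweet taste cell markers fitted the label of the fraction, since Gr5a, Gr64f, Gr64a and Gr61a summed to between 8.60 and 13.6 CPM (counts scaled by library size) in the Gr5a fraction of CD7 flies and between 0.912 and 1.88 CPM in the input. Markers of other cells were present too. In the Gr5a fraction of CD7 flies the 11 midgut enterocyte markers summed to between 2396 and 4410 CPM, the 6 photoreceptor markers to between 9038 and 14360 CPM and the 6 accessory gland markers to between 105 and 133 CPM. In the input of CD7 flies the same lists summed to between 738 and 958 CPM, between 19230 and 23250 CPM and between 311 and 425 CPM. None of these markers was at 0 in either group.

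The level of a precursor was compared between genes as RPKM, which divides CPM by the exon length in kilobases, and between libraries as CPM alone. Nplp3, a neuropeptide-like precursor found by peptidomics, was the most abundant member in both fractions. It stood at 1348, 984 and 1228 RPKM in the Gr5a fraction of CD7 flies and at 499, 390 and 396 RPKM in the input, so that all 3 Gr5a libraries were above all 3 input libraries. CCHa2, a peptide hormone of fat body and gut that reports feeding to the insulin-producing cells in larvae, was second in both, with 38.9, 49.5 and 36.4 RPKM in the Gr5a fraction and 105, 102 and 90.3 RPKM in the input.

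The next members by RPKM differed between the fractions. In the input they were the myosuppressin precursor Ms, the short neuropeptide F precursor sNPF and the allatostatin C precursor AstC, with group means of 51.5, 43.2 and 32.5 RPKM. In the Gr5a fraction they were ITP, which encodes the ion transport peptide of water balance, sNPF, and Dsk, the cholecystokinin-like satiety peptide, with means of 37.8, 27.2 and 25.8 RPKM. ITP had 40.9, 34.9 and 37.7 RPKM in the Gr5a fraction, against 32.6, 32.6 and 31.6 RPKM in the input. Dsk varied most of these, with 41.8, 14.0 and 21.5 RPKM in the Gr5a fraction and 31.8, 20.4 and 21.5 RPKM in the input, and the groups overlapped.

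At the other end, some members were close to the limit of these libraries. Eh, the eclosion hormone, and RYa, the RYamide precursor, had at most 10 and 8 counts in any of the 16 libraries and did not pass the low-count filter. AstCC, the paralog of AstC, had at most 17 counts in a library, and amn, the amnesiac memory gene, at most 11. Burs, which encodes a subunit of the moulting hormone bursicon, had between 0 and 12 counts in 14 libraries, 32 in replicate 2 of the Gr5a fraction of CD7 flies and 19 in replicate 1 of that of SD7 flies. ETH had between 0 and 28 counts in a library and Ilp7 between 1 and 29. The number of members with at least 10 counts was 26 to 31 in the Gr5a fraction of CD7 flies and 29 or 30 in the input of CD7 flies.

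**Figure D1:**
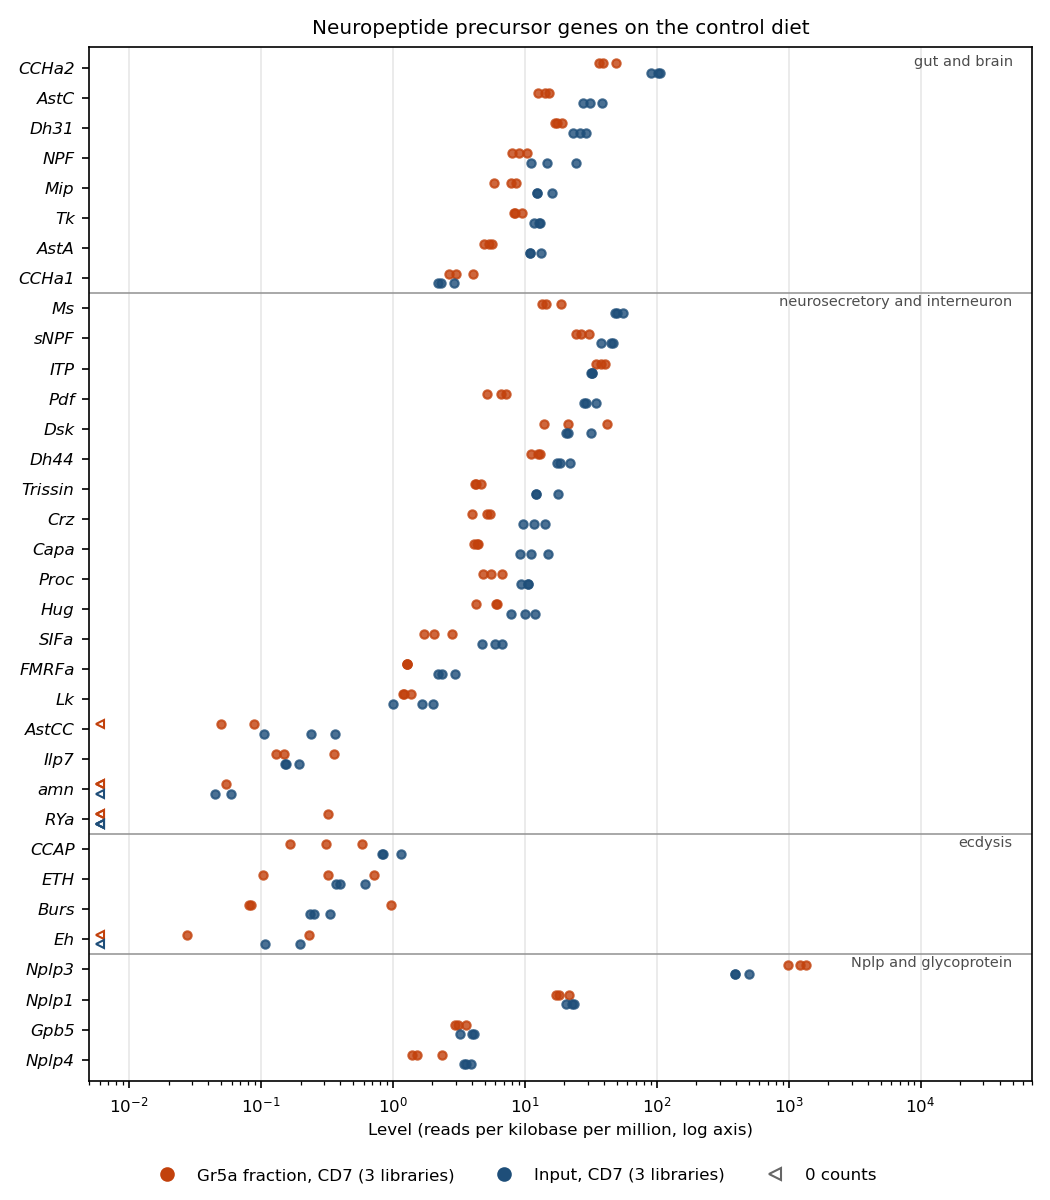
Level of 34 neuropeptide precursor genes in each library of CD7 flies, in RPKM on a log axis, with the Gr5a fraction (orange) above the input (blue) in each row and genes grouped by role. Nplp3 is the most abundant member in both fractions and is higher in the Gr5a fraction, while most members with over 1 RPKM lie further left in the Gr5a fraction. Open triangles at the left edge mark libraries with 0 counts.

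Most neuropeptide precursors were less abundant in the pull-down than in the whole lysate. On the control diet 22 of the 32 members tested differed at an edgeR adjusted p under 0.1, of which 21 were lower in the Gr5a fraction and 1, Nplp3, was higher. Of all 14185 genes tested 46.2% differed, and 22.0% were lower in the Gr5a fraction. The median log2 fold change was -0.84 over the members and 0.02 over all genes tested. Both fractions came from the same kind of heads, and how much of each mRNA came from cells with the tag was not tested. Without Nplp3 the members summed to 584, 512 and 519 CPM in the Gr5a fraction, against 887, 773 and 783 CPM in the input. Nplp3 alone took 50.8% to 56.0% of the summed member CPM in the Gr5a fraction and 21.3% to 23.2% in the input.

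Markers of other cells moved with the fraction as well. On the control diet all 4 sweet taste cell markers and 10 of 11 midgut enterocyte markers were higher in the Gr5a fraction, all 6 photoreceptor markers and all 6 accessory gland markers were lower, and 0 of 5 neuron markers were called by edgeR, also at an unadjusted p under 0.05. The neuron markers summed to between 3084 and 4165 CPM in the Gr5a fraction and between 3695 and 3981 CPM in the input, and none of the 5 was at 0. The part of these other cells in the peptide values was not tested.

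Nplp3 (FBgn0042201, 3L:16318024-16318690, plus strand, protein-coding, coordinates of BDGP6) had 725, 529 and 661 CPM in the Gr5a fraction of CD7 flies and 269, 210 and 213 CPM in the input. The groups did not overlap, and within same-numbered lysates the Gr5a fraction held 2.52 to 3.10 times the input level. Its log2 fold change was 1.48 (SE 0.23, edgeR adjusted p 0.00139), and it was called in all 14 alternative analyses.

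The precursors of brain neurosecretory cells and interneurons carried the largest decreases. Pdf (FBgn0023178, 3R:26455462-26456141), the peptide of the pigment-dispersing clock neurons, had 4.92, 3.50 and 4.48 CPM in the Gr5a fraction and 23.7, 20.0 and 19.1 CPM in the input. Every Gr5a library lay far below every input library, at 0.18 to 0.23 of the level of its own lysate, and the log2 fold change was -2.28 (SE 0.18, edgeR adjusted p 5.86e-05). Ms (FBgn0011581, 3R:24341551-24343825), a peptide that relaxes visceral muscle, had 22.3, 15.8 and 17.2 CPM in the Gr5a fraction and 66.0, 57.3 and 58.6 CPM in the input. Its groups did not overlap either, and it fell by 1.71 on the log2 scale (SE 0.15, edgeR adjusted p 9.07e-05).

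Precursors with lower counts in the same group showed the pattern too. Trissin, a cysteine-rich peptide with its own receptor, had 2.34, 2.31 and 2.55 CPM in the Gr5a fraction and 9.80, 6.75 and 6.76 CPM in the input (log2 fold change -1.69, SE 0.22, edgeR adjusted p 0.000577). Capa, whose peptides act on the Malpighian tubules, had 2.86, 3.05 and 3.04 CPM in the Gr5a fraction and 10.4, 7.77 and 6.37 CPM in the input (-1.45, SE 0.22, edgeR adjusted p 0.0012). SIFa, made by a few neurons of the pars intercerebralis, had 1.48, 0.90 and 1.09 CPM in the Gr5a fraction and 3.52, 2.51 and 3.14 CPM in the input (-1.40, SE 0.29, edgeR adjusted p 0.00545). None of the 3 overlapped between the fractions. Groups this small can also separate without a difference, and how many of all genes did so was not counted for any comparison. The exons of SIFa overlap Start1 on the other strand, as those of ITP overlap CG4622, CCAP CG6972, Ilp7 Parg and amn Hers, Lk asRNA:CR44843 and ETH asRNA:CR43257, and the counts of same-strand reads were used for all genes.

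Further members of this role were lower in the Gr5a fraction too. Crz, the stress hormone corazonin, had 3.59, 3.36 and 2.60 CPM in the Gr5a fraction and 9.27, 7.73 and 6.37 CPM in the input (log2 fold change -1.28). FMRFa, whose peptides act at neuromuscular junctions, had 1.82, 1.82 and 1.84 CPM in the Gr5a fraction and 4.26, 3.35 and 3.16 CPM in the input (-0.97). sNPF had 74.9, 59.6 and 65.5 CPM in the Gr5a fraction, against 114, 92.2 and 110 CPM in the input (-0.66). In each of these genes all 3 Gr5a libraries were below all 3 input libraries. Hug, the hugin pyrokinin of feeding circuits, Proc, the muscle-active proctolin, and the diuretic hormone Dh44 also fell, by 0.85, 0.82 and 0.65 on the log2 scale. Of all genes 46.2% were called and 22.0% were lower. Among the 17 tested members of this role 3 had a positive log2 fold change, none of them called, and 12 were called lower (70.6%). The 12th was AstCC, with 4, 3 and 0 counts in the Gr5a fraction and 17, 12 and 7 in the input (log2 fold change -2.27, SE 0.97, edgeR adjusted p 0.0915), which lost its call without replicate 2 or replicate 3 of the Gr5a fraction and without the low-count filter.

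Among the 8 peptides shared by gut endocrine cells and brain, 7 were called lower (87.5%) and none higher. Of all genes 46.2% were called and 22.0% were lower. CCHa2 (FBgn0038147, 3R:13389059-13395197) had 56.8, 72.3 and 53.1 CPM in the Gr5a fraction and 154, 149 and 132 CPM in the input, with a log2 fold change of -1.25 and an SE of 0.19 (edgeR adjusted p 0.0013). AstC had 18.5, 15.1 and 17.1 CPM in the Gr5a fraction and 46.5, 33.3 and 37.5 CPM in the input (-1.21, SE 0.15, edgeR adjusted p 0.000462). AstA, an allatostatin that limits feeding, had 7.23, 7.82 and 8.22 CPM in the Gr5a fraction and 19.3, 15.9 and 15.9 CPM in the input (-1.13, SE 0.16, edgeR adjusted p 0.000779). The fractions did not overlap in any of the 3. NPF, a relative of neuropeptide Y, fell by 0.86, the myoinhibitory peptide gene Mip by 0.86, Dh31 by 0.55 and the tachykinin gene Tk by 0.50 on the log2 scale. CCHa1 was the exception, with 3.46, 2.60 and 2.31 CPM in the Gr5a fraction and 2.51, 1.89 and 2.00 CPM in the input (log2 fold change 0.39, SE 0.26, edgeR adjusted p 0.261). Reads on the opposite strand made up 39.75% of the strand-specific counts at CCHa1, where no annotated gene overlaps on that strand. The fat body markers summed to between 5023 and 7615 CPM in the Gr5a fraction and between 12930 and 18210 CPM in the input, with 1 of 4 tested called lower, and their part in the CCHa2 value was not tested. The midgut enterocyte markers stood higher in the same Gr5a libraries in which these 7 peptides stood lower. These markers are of enterocytes and not of endocrine cells, and the part of gut tissue in the peptide values was not tested.

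Of the ecdysis peptides, which drive the moulting sequence in larvae and pupae, only CCAP was called, with 8, 20 and 27 counts in the Gr5a fraction and 41, 45 and 82 counts in the input (log2 fold change -1.40, SE 0.53, edgeR adjusted p 0.0611). CCAP lost its call in 5 of 14 alternatives, namely with unstranded counts and without replicate 1 or 2 of the Gr5a fraction or replicate 2 or 3 of the input. Nplp4 fell by 1.05 on the log2 scale and lost its call in 7 of 14 alternatives, the replicate block among them, and NPF lost it without replicate 1 of either fraction, with a log2 fold change of -0.50 without that of the input. The value of CCAP was -0.69 with unstranded counts. The 18 other called members kept their call in every alternative run.

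The members that were not called on the control diet included 2 of the most abundant. ITP had 192, 164 and 177 CPM in the Gr5a fraction and 153, 153 and 148 CPM in the input, which did not overlap, with a log2 fold change of 0.23 and an SE of 0.11 (edgeR adjusted p 0.111). Nplp1, another neuropeptide-like precursor, had 59.0, 46.9 and 49.3 CPM in the Gr5a fraction and 63.4, 55.2 and 62.1 CPM in the input (-0.21, SE 0.12, edgeR adjusted p 0.182). Dsk had 23.8, 7.98 and 12.2 CPM in the Gr5a fraction and 18.1, 11.6 and 12.2 CPM in the input (0.07, SE 0.35, edgeR adjusted p 0.894). ITP passed the threshold, higher in the Gr5a fraction, when the groups were compared alone, with library totals without TMM and without replicate 2 of the Gr5a fraction. Nplp1 passed it, lower in the Gr5a fraction, with unstranded counts, with library totals and without replicate 1 of the Gr5a fraction. The remaining 6 uncalled genes were Gpb5, Lk, Ilp7, amn, Burs and ETH, with log2 fold changes between -0.79 and 0.52 and SEs of 0.22 to 1.44.

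**Figure D2:**
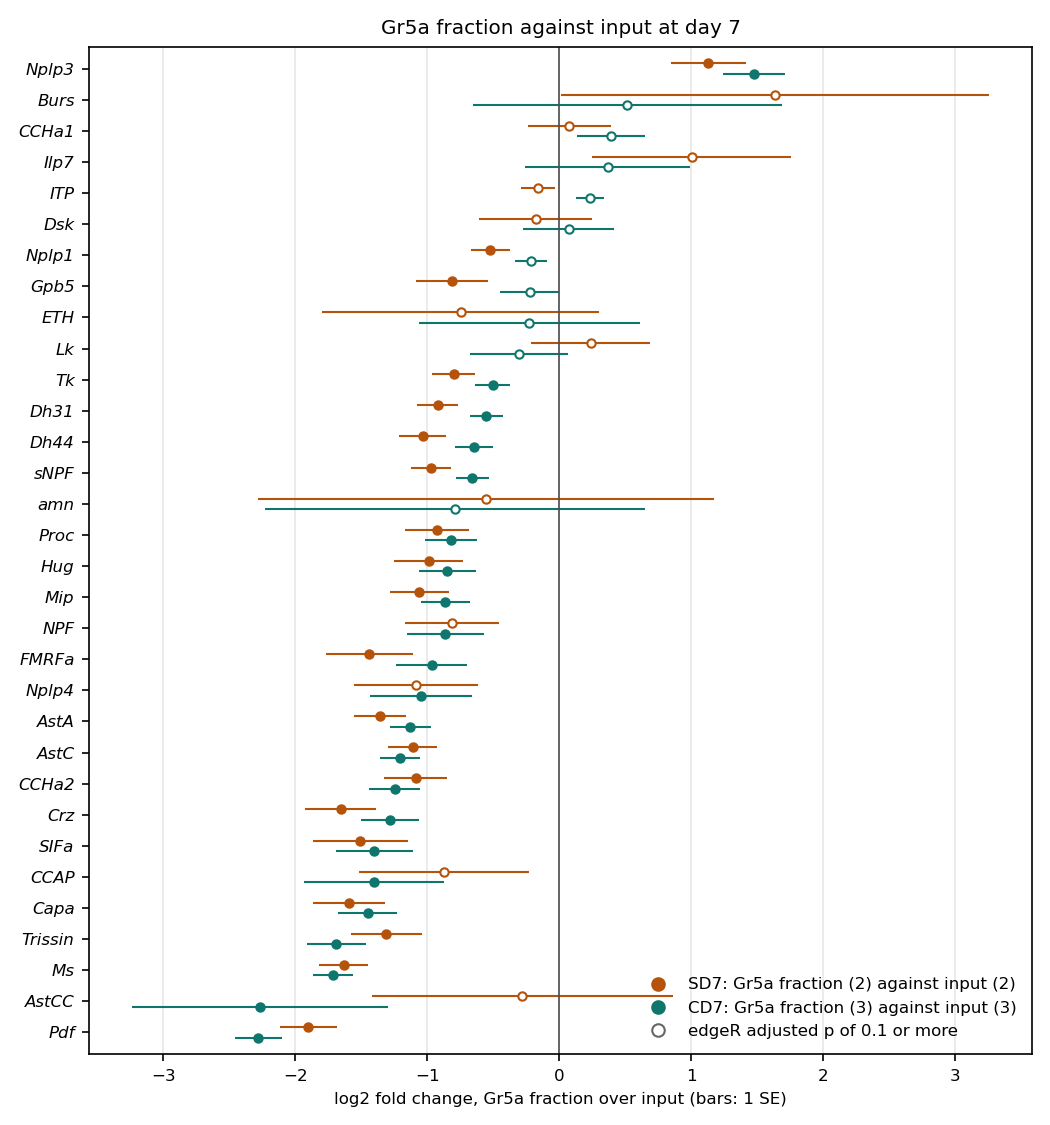
Log2 fold change of the Gr5a fraction over the input for the 32 tested members on the sugar diet (SD7, orange, upper point) and the control diet (CD7, green, lower point), with bars of 1 SE and open points for an edgeR adjusted p of 0.1 or more. Nplp3 lies at 1.13 and 1.48 at the top, and Pdf at -1.90 and -2.28 at the bottom.

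The same comparison was made on the sugar diet in other libraries. At SD7, 20 of 32 members differed (edgeR), 19 lower in the Gr5a fraction and Nplp3 higher, where 18.7% of all 14185 genes tested differed and 7.95% were lower. Of the 20 called members 10 kept their call in all 13 alternatives. The median log2 fold change was -0.92 over the members and 0.00 over all genes. Both diets called 18 of these genes, all with the same sign, which is 90.0% of the calls on the sugar diet and 81.8% of those on the control diet. Without replicate 1 of the SD7 input 11 members were called, and CCHa2, FMRFa, Gpb5, Hug, Mip, Nplp1, Proc, SIFa and Tk dropped out, while 1230 of 14690 genes were called in all. Without replicate 1 of the SD7 Gr5a fraction 14 members and 1576 of 14569 genes were called, all of these members lower, and the log2 fold change of Nplp3 was 1.02 (edgeR adjusted p 0.111). The value of Nplp3 rested on the input libraries as well, at 1.76 without replicate 1 of the SD7 input and 0.71 without replicate 2. That of CCHa2 was -1.09, and -0.69 without replicate 1 of the SD7 input. That of Proc was -0.93, and -0.61 without replicate 1 of the SD7 Gr5a fraction.

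Pdf had 5.84 and 5.88 CPM in the Gr5a fraction of SD7 flies and 24.3 and 18.8 CPM in the input, a log2 fold change of -1.90 and an SE of 0.22 (edgeR adjusted p 0.00091). Ms had 19.2 and 21.4 CPM in the Gr5a fraction and 70.6 and 53.1 CPM in the input (-1.63, SE 0.19, edgeR adjusted p 0.000937). Crz had 2.71 and 2.79 CPM in the Gr5a fraction and 9.62 and 7.44 CPM in the input (-1.66, SE 0.27, edgeR adjusted p 0.00458). All these Gr5a libraries lay below the input libraries of the same diet. AstA fell by 1.36, Capa by 1.59, SIFa by 1.51, FMRFa by 1.44 and Trissin by 1.31 on the log2 scale, again without overlap. So few libraries per group can give such an order without a difference, and its share among all genes was not counted. Nplp3 had 326 and 290 CPM in the Gr5a fraction and 187 and 90.9 CPM in the input (1.13, SE 0.28, edgeR adjusted p 0.0279), both Gr5a libraries above both input libraries.

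On the sugar diet the 5 neuron markers summed to between 3440 and 3864 CPM in the Gr5a fraction and between 4422 and 5979 CPM in the input, and 3 of them were called lower. All 6 photoreceptor markers were lower, 9 of 11 midgut enterocyte markers and 3 of 4 sweet taste cell markers were higher, and none of these lists but the midgut list, with Jon25Bi in the input, had a marker at 0. Their part in the peptide values was not tested.

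Gpb5, the beta subunit of a glycoprotein hormone, and Nplp1 were called on the sugar diet and not on the control diet, at -0.81 and -0.52. Gpb5 kept this call in 5 of 13 alternatives and lost it with the replicate block, with the groups alone, without the low-count filter, with library totals and without any 1 of the 4 SD7 libraries. Nplp1 kept it in 10 of 13, losing it with the groups alone and without replicate 1 of either fraction. At Gpb5 52.85% of the strand-specific counts lay on the opposite strand, where no annotated gene overlaps. AstCC, CCAP, NPF and Nplp4 were called on the control diet and not on the sugar diet. The difference itself was tested by the diet by fraction interaction. It called 0 of 32 members and 0.0% of 14185 genes (edgeR). At an unadjusted p under 0.05 it gave 1 member and 1391 genes, and DESeq2 called 0 members and 12 genes. The member was ITP, with 152 and 159 CPM in the Gr5a fraction of SD7 flies and 195 and 147 CPM in the input, an interaction of -0.40 (SE 0.17, edgeR adjusted p 0.487).

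The other genes of peptide signalling were taken from lists of receptors, processing and secretion genes, and further precursors. Of 38 receptor genes tested on the control diet 17 differed, 9 higher in the Gr5a fraction and 8 lower, a share of 44.7% beside 46.2% of all genes, with a median log2 fold change of -0.01. The corazonin receptor gene CrzR had 75.5, 70.8 and 89.3 CPM in the Gr5a fraction and 30.2, 28.8 and 26.9 CPM in the input, opposite in direction to its ligand gene Crz, with a log2 fold change of 1.46 and an SE of 0.14 (edgeR adjusted p 9.7e-05). Lgr1, which encodes a receptor for glycoprotein hormones, rose by 1.04, the pyrokinin receptor gene PK1-R by 1.03 and the Capa receptor gene CapaR by 0.93 on the log2 scale. On the sugar diet 10 of 38 receptor genes differed (26.3%, beside 18.7% of all genes), 3 higher and 7 lower, among them CrzR at 1.20, Lgr1 at 0.96, FMRFaR at -0.92 and the allatostatin A receptor gene AstA-R1 at -0.85.

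Of 15 genes of peptide processing and secretion, 9 differed on the control diet, 4 higher and 5 lower, where 46.2% of all genes differed and 22.0% were lower. Nep2, a neprilysin that degrades peptides outside the cell, had 199, 104 and 144 CPM in the Gr5a fraction and 28.9, 21.7 and 27.8 CPM in the input (log2 fold change 2.52, SE 0.22, edgeR adjusted p 8.69e-05), and Nep1 of the same family rose by 1.22 on the log2 scale. Among the 5 lower genes were dimm, a transcription factor of neurosecretory cells, at -1.24 and Pal2, an enzyme of amidation, at -0.71. On the sugar diet, where 18.7% of all genes differed and 7.95% were lower, 10 of 15 differed, with Nep2 at 2.22 and Nep1 at 0.95 higher and 8 genes lower, dimm at -1.87 and Pal2 at -0.97 among them. Of 11 further precursor genes tested, on the control diet 8 were lower in the Gr5a fraction and none was higher, as were 7 of 11 on the sugar diet. They included the insulin-like peptide gene Ilp2 at -1.71 on the sugar diet and -1.47 on the control diet, Orcokinin at -1.26 on the sugar diet and -1.46 on the control diet, Ilp3 at -1.61 on the control diet and natalisin at -1.33 on the sugar diet. SP, the sex peptide of the male accessory gland, was lower too, at -1.23 on the sugar diet and -2.69 on the control diet.

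Diet was compared next within the Gr5a fraction. After 3 days of sugar 0 of 30 members tested were called (edgeR), where 0.0436% of 13758 genes were (6 genes, and 0 to 3 with any 1 library left out), and 3 members had an unadjusted p under 0.05. After 7 days 0 of 30 members and 0.0% of 13758 genes were called, and the unadjusted p was under 0.05 for 3 members and 772 genes. Over all genes 2011 had an unadjusted p under 0.05 at SD3. DESeq2 called 2 members at SD3, CCHa2 lower and Pdf higher, and 0 at SD7. The 18 members with a mean of at least 5 CPM had log2 fold changes between -1.26 and 0.67 at SD3 and between -1.02 and 0.48 at SD7, with median SEs of 0.22 and 0.21. A difference of the size that separated Pdf or Ms between the fractions was not seen in any of these 18 genes. The value of -1.26 at SD3 was that of CCHa2, whose difference between the fractions at CD7 was -1.25.

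CCHa2 had the lowest p of the members at SD3, with 26.6 and 27.0 CPM in the Gr5a fraction of SD3 flies and 56.8, 72.3 and 53.1 CPM in that of CD7 flies, with no overlap. Its log2 fold change was -1.26 (SE 0.30, edgeR p 0.00184, adjusted p 0.306). At SD7 it had 43.3 and 31.3 CPM, below all 3 CD7 libraries again, and a log2 fold change of -0.67 and an SE of 0.29 (edgeR adjusted p 0.887). The SD3 and SD7 comparisons share the CD7 libraries. Diet groups this small can separate without a difference, and the share of all genes that did so was not counted. The call at SD3 depended on the test, since DESeq2, the fit of both groups alone and the replicate block each gave an adjusted p under 0.1, at 0.0114, 0.0357 and 0.000223. With CD>CD as the control in place of CD7 CCHa2 was not called.

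Nplp3 stood at 725, 529 and 661 CPM in the Gr5a fraction at CD7, at 477 and 546 CPM at SD3 and at 326 and 290 CPM at SD7. The SD7 libraries lay below all CD7 libraries and the SD3 libraries overlapped them. The log2 fold change was -0.39 (SE 0.37, edgeR adjusted p 0.629) at SD3 and -1.02 (SE 0.38, edgeR adjusted p 0.853) at SD7. Dh44, which had the lowest p at SD7, had 21.7 and 20.0 CPM at SD7 and 31.2, 30.3 and 27.0 CPM at CD7 (-0.47, SE 0.15, edgeR p 0.0101, adjusted p 0.786), without overlap. Pdf had 4.92, 3.50 and 4.48 CPM at CD7, 6.14 and 8.26 CPM at SD3 and 5.84 and 5.88 CPM at SD7, both sugar groups above CD7, with a log2 fold change of 0.67 at SD3 (SE 0.22, edgeR adjusted p 0.306).

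In the input of SD7 flies 0 of 32 members were called against CD7 (edgeR), where 0.0705% of 14185 genes were. This background rested on single libraries, since the 10 genes called became 1391 of 14606 without replicate 2 of the SD7 input, 29 without replicate 3 of the CD7 input and 1 when any of the other 3 libraries was left out, with 0 members called each time. By edgeR 4 of 32 members had an unadjusted p under 0.05, beside 18.8% of all genes, and DESeq2 called 3 members and 870 genes. CCHa2 had 96.2 and 60.1 CPM in the input of SD7 flies and 154, 149 and 132 CPM in that of CD7 flies, a log2 fold change of -0.88 and an SE of 0.22 (edgeR p 0.00227, adjusted p 0.166). It was below every CD7 library, as in the Gr5a fraction. Nplp3 had 187 and 90.9 CPM in the input of SD7 flies and 269, 210 and 213 CPM in that of CD7 flies (-0.73, SE 0.26, edgeR adjusted p 0.215). Gpb5 had 5.64 and 4.44 CPM at SD7, above the 3.04, 2.47 and 3.16 CPM of CD7 (0.81, SE 0.24, edgeR adjusted p 0.191). The fourth was sNPF, with 141 and 122 CPM at SD7 and 114, 92.2 and 110 CPM at CD7 (0.32, SE 0.14, edgeR adjusted p 0.25).

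The levels of fat body and gut markers in the same libraries were as follows. In the input the 5 fat body markers summed to between 7421 and 12480 CPM at SD7 and between 12930 and 18210 CPM at CD7. Fbp1 was at 0 in both SD7 libraries, but at only 0.0253 to 0.0887 CPM at CD7. Lsp2 had 5.58 and 0.974 CPM at SD7 and 579, 577 and 226 CPM at CD7. The 11 midgut enterocyte markers summed to between 163 and 463 CPM at SD7 and between 738 and 958 CPM at CD7, with Jon25Bi at 0 in both SD7 libraries. In the Gr5a fraction the fat body markers summed to between 5023 and 7615 CPM at CD7, between 2965 and 3557 CPM at SD3 and between 3511 and 5361 CPM at SD7. The midgut enterocyte markers of the Gr5a fraction summed to between 2396 and 4410 CPM at CD7, between 3361 and 3441 CPM at SD3 and between 1026 and 1870 CPM at SD7. The SD3 sums held 1204 and 1152 CPM of LysP, which had 215, 23.1 and 318 CPM at CD7. At SD3 7 of the 11 markers had a negative log2 fold change and 4 a positive one, with a median of -0.74. By edgeR 1 of 4 tested fat body markers was called lower in the input at SD7 and 0 of 11 midgut markers were, while in the Gr5a fraction 2 of 5 fat body and 1 of 11 midgut markers were called lower at SD3 and none at SD7. Their part in the values of CCHa2 was not tested. Of the peptide signalling lists, none of 38 receptor genes or 15 processing genes was called in any of the 3 sugar diet comparisons, and 1 further precursor was. This was CNMa, the precursor of the CNMamide peptide, with 24.9 and 25.8 CPM in the input of SD7 flies and 3.04, 3.77 and 4.50 CPM in that of CD7 flies (log2 fold change 2.76, SE 0.22, edgeR adjusted p 0.00252).

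**Figure D3:**
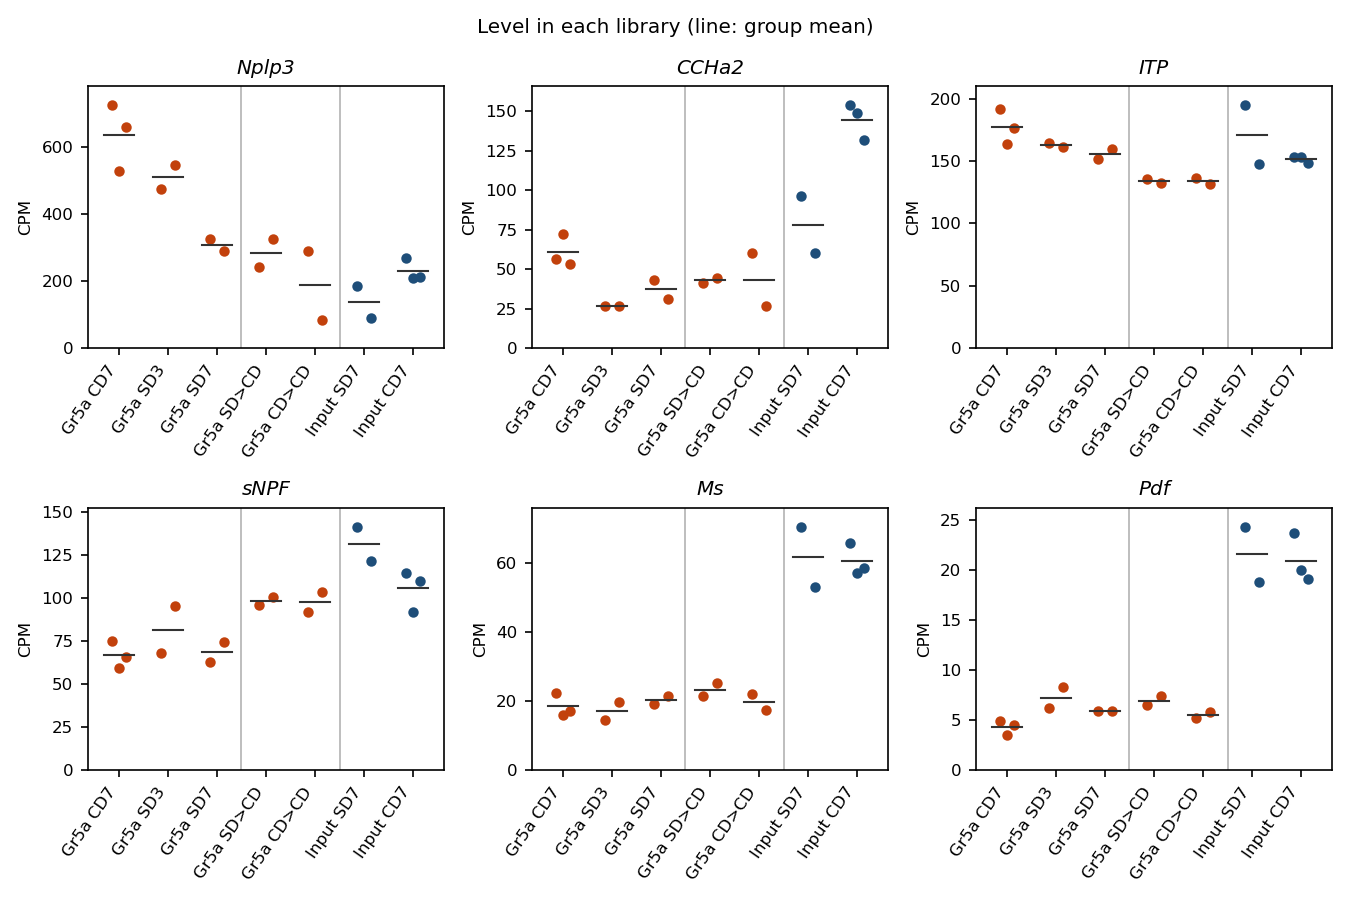
CPM of 6 neuropeptide precursor genes in each of the 16 libraries, with points for libraries and a line for the group mean, for the Gr5a fraction (orange) and the input (blue). Both sugar groups lie below the CD7 libraries for CCHa2 in the Gr5a fraction, and the SD7 libraries do in the input, while Ms and Pdf are low in every Gr5a library and high in every input library.

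The last comparison asked what remained 7 days after the return from sugar to the control diet. In the Gr5a fraction SD>CD differed from CD>CD in 13.3% of 13758 genes, and 13.1% were lower in SD>CD, but 0 of 30 neuropeptide members were called (edgeR). None of the 30 had an unadjusted p under 0.05 either, where 18.3% of all genes did. DESeq2 called 0 of the members and 2118 genes in all. The 1828 genes called became fewer without CD>CD replicate 2 or either SD>CD replicate, and more without CD>CD replicate 1. Each of these fits leaves 1 library in a group. In the fit of all libraries the median log2 fold change was 0.07 over the members and -0.03 over all genes. Among the 18 members with a mean of at least 5 CPM it lay between -0.15 and 0.67, with 15 above 0 and a median SE of 0.24.

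The most abundant and the most fraction-dependent members stood as follows. ITP had 136 and 132 CPM in SD>CD and 136 and 131 CPM in CD>CD, sNPF had 96.3 and 101 CPM in SD>CD and 91.9 and 103 CPM in CD>CD, and Ms had 21.4 and 25.3 CPM in SD>CD and 22.1 and 17.4 CPM in CD>CD. The groups overlapped in each of these 3 genes. Pdf had 6.43 and 7.34 CPM in SD>CD and 5.16 and 5.81 CPM in CD>CD, AstC had 13.2 and 15.2 CPM in SD>CD and 12.7 and 11.8 CPM in CD>CD, and Dsk had 12.8 and 12.5 CPM in SD>CD and 8.92 and 9.90 CPM in CD>CD. In these 3 genes both SD>CD libraries were above both CD>CD libraries, an order that 2 libraries per group often give without a difference. How many of all genes had this order was not counted. The log2 fold changes were 0.38 (SE 0.25), 0.27 (SE 0.18) and 0.47 (SE 0.42), with edgeR adjusted p values of 0.578, 0.578 and 0.733.

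Genes of the gut and the male reproductive tract were lower in SD>CD in these libraries. The 11 midgut enterocyte markers summed to between 4.64 and 5.10 CPM in SD>CD and between 1212 and 3361 CPM in CD>CD, and 10 of the 11 were called, all lower. The 6 accessory gland markers summed to between 0.469 and 0.518 CPM in SD>CD and between 32.8 and 39.5 CPM in CD>CD, all 6 called lower, with SP and Acp29AB at 0 in SD>CD, as was the midgut marker Jon99Ci. The 7 testis markers summed to between 6.82 and 9.63 CPM in SD>CD and between 40.6 and 75.7 CPM in CD>CD, with 6 called lower. Of the 8 peptides shared by gut endocrine cells and brain none was called, with log2 fold changes between -0.31 for CCHa1 and 0.51 for Mip. Mip had 14.7 and 15.5 CPM in SD>CD and 12.4 and 9.60 CPM in CD>CD (SE 0.26, edgeR adjusted p 0.379). Of the other lists 0 of 38 receptor genes and 0 of 15 processing genes were called, and of 11 further precursors only SP, which is itself one of the accessory gland markers.

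Replicates of CD>CD were far apart in some of the members followed above. Nplp3 had 244 and 325 CPM in SD>CD, and 290 and 85.7 CPM in replicates 1 and 2 of CD>CD. Its log2 fold change was 0.67 (SE 0.41, edgeR adjusted p 0.511) and became 1.72 without CD>CD replicate 1. The remaining CD>CD library is then assumed to vary like the other groups. CCHa2 had 41.6 and 44.7 CPM in SD>CD, and 60.0 and 26.9 CPM in CD>CD, on either side of the SD>CD values. CCHa1 had 2.34 and 2.85 CPM in SD>CD, and 1.64 and 4.90 CPM in CD>CD, again on either side. Burs was at 0 counts in SD>CD and at 3 and 1 counts in CD>CD, too few for a fold change.

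**Figure D4:**
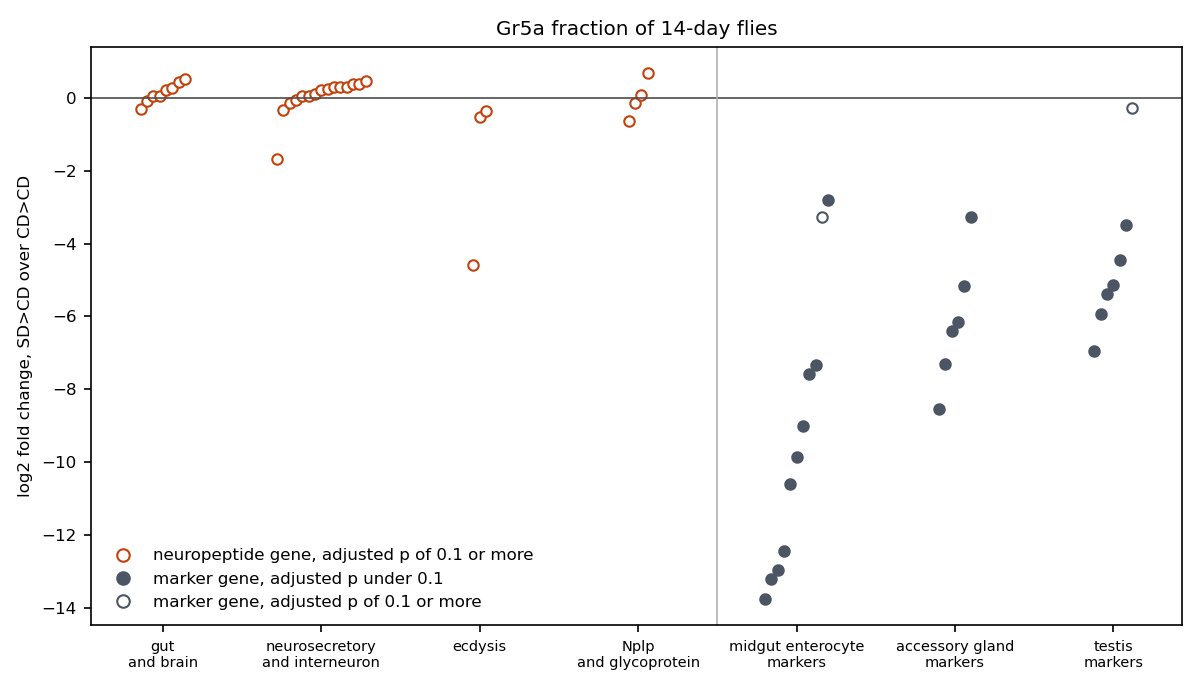
Log2 fold change of SD>CD over CD>CD in the Gr5a fraction for the 30 tested neuropeptide members by role (orange, left) and for markers of midgut enterocytes, accessory gland and testis (grey, right), with filled points for an edgeR adjusted p under 0.1. No member is filled and most lie near 0, while 10 of 11 midgut enterocyte markers and all 6 accessory gland markers are filled and lie below -2. The member at -4.60 is Burs, whose counts are too low for a fold change.

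The SD>CD group was also compared with CD7, while CD>CD was not tested against CD7. With CD7 as the control, 9 of 30 members were called in SD>CD (edgeR), where 43.5% of 13758 genes were. Dh31, FMRFa, Hug, sNPF, Nplp1, Pdf and Tk were higher in SD>CD and ITP and Nplp3 were lower. Nplp1 had 86.1 and 89.0 CPM in SD>CD, 78.7 and 93.6 CPM in CD>CD and 59.0, 46.9 and 49.3 CPM in CD7. ITP had 136 and 132 CPM in SD>CD, 136 and 131 CPM in CD>CD and 192, 164 and 177 CPM in CD7. In both genes the 14-day groups overlapped each other and not CD7. The flies of both 14-day groups were 7 days older at collection than CD7 flies, and those of CD>CD had eaten the same control diet as CD7 flies throughout.

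Across the 11 Gr5a libraries the members differed in how much they varied. The coefficient of variation was lowest for ITP, at 12.7%, AstA, at 13.3%, and AstC, at 15.5%. ITP ranged from 131 to 192 CPM with a median of 159 CPM, and AstA from 6.40 to 10.3 CPM with a median of 7.58 CPM. Among members with at least 100 counts in every Gr5a library it was highest for Dsk, at 47.6%, and Nplp3, at 47.4%. Dsk ranged from 7.98 to 30.5 CPM with a median of 12.5 CPM, and Nplp3 from 85.7 to 725 CPM with a median of 326 CPM. The Dsk values were 23.8, 7.98 and 12.2 CPM at CD7, 18.1 and 30.5 CPM at SD3 and 10.4 and 13.2 CPM at SD7, so that CD7 alone spanned most of this range.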

How the data were processed

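Ribosome-bound RNA of the Gr5a fraction and RNA of the whole lysate were sequenced from fly heads in 16 libraries. The authors deposited raw read counts per gene, made by alignment to BDGP6, and the submitters' processing notes name STAR, HTSeq, SAMtools 1.4 and DESeq2 1.18.0. Of these libraries 15 have 3 count columns, of which the same-strand column was used (96.49% of strand-specific counts), and 1, CD7 replicate 1 of the Gr5a fraction, has a single column. Rows that name no gene, present in 13 files, were left out, and depth was 22901154 to 55290069 counts.

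Counts were tested with edgeR 4.0.16 (R 4.3.3, Python 3.11.15): low-count filter, TMM scaling, prior count 0.125, the two-sided quasi-likelihood F test and Benjamini-Hochberg adjustment over all genes tested, with calls at an adjusted p under 0.1. Diet comparisons of the Gr5a fraction used its 11 libraries, and the other comparisons the day-7 libraries of both fractions. DESeq2 1.42.0, other scalings and filters, unstranded counts, groups alone, other control groups, the replicate block and leaving out libraries were the alternatives; library totals without TMM and crossed replicate numbers were added after seeing the data.

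Same-numbered CD7 libraries of both fractions deviated together (correlations 0.349, 0.234 and 0.283), so their numbers pair them. The labels name no separate cultures of flies beyond the replicate number, so p-values measure the spread between these samples.

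Members and lists were chosen with earlier results of these data known. Libraries' values were given for members called in a comparison (up to 8 by size of change), for the 5 with the highest RPKM in each fraction at CD7 and for members absent from 1 group, of which there were 0. Up to 4 called genes per other list were named. Members named beyond this were chosen after their values were seen. RPKM used union exon lengths of the BDGP6 annotation.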

Additional observations from a re-analysis of the deposited data

Results flagged for a closer look

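Counts on the opposite strand, which entered no comparison except the alternative with unstranded counts, were above the limit of 3 counts that a count of 0 allows in each of the 15 libraries with strand-specific columns at 7 members whose exons overlap no annotated gene on that strand. At Gpb5, which encodes the glycoprotein hormone beta subunit, there were 70 to 243 opposite-strand counts per library, 52.85% of its strand-specific counts. At CCHa1, one of the gut and brain peptides, there were 30 to 136, which was 39.75%. The other 5 had smaller shares, with 4 to 64 counts at Hug (9.15%), 12 to 50 at Dsk (5.46%), 9 to 92 at Ms (3.00%), 14 to 325 at Nplp3 (1.10%) and 6 to 37 at Nplp1 (0.756%). Over all genes 96.49% of strand-specific counts lay on the same strand.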

How the results depend on the processing

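The number of members called between the Gr5a fraction and the input at CD7 was 19 to 21 with 1 library left out. Between 4782 and 6896 genes were called in all in these fits. With the replicate block the number was 21 of 32 members, where 6395 of 14185 genes were called. At SD7 it was 11 to 19 with 1 library left out, 11 being without replicate 1 of the input. It was 19, with 2583 genes in all, with the replicate block and 15, with 1334 genes in all, when both groups were compared alone. Same-numbered SD7 libraries deviated in opposite directions (correlation -0.272), and crossing the numbers gave 22 members and 3931 genes there, and 0 members and 1052 genes for the interaction. Where 1 library of a pair was left out, the other was assumed to vary like the remaining groups.

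For SD3 against CD7, where 0 members were called, DESeq2 called 2 members (478 genes), the groups alone 1 (157 genes), the replicate block 1 (503 genes) and CD>CD as the control 5 (3176 genes), with Dsk, Nplp3, NPF and ITP higher and Gpb5 lower at SD3. The log2 fold change of Dh31 was -0.26 with that control, against 0.32 with CD7. For SD7 against CD7 in the Gr5a fraction the replicate block called 1 member, Nplp3, and 119 genes. In the input DESeq2 called 3 members (870 genes) and the replicate block 2 (860 genes). These diet groups share only replicate numbers. For SD>CD the count was 0 to 1 with 1 library left out, 1 being without CD>CD replicate 1, and 9 with CD7 as the control. The cause of these changes was not tested. A tally was made for the members called in a comparison and for some others picked by name. In it 661 alternative values kept direction and side of the threshold, 44 lost the call, 10 gained it and 1 reversed. Calls gained by other members were not part of this tally. Library totals without TMM moved the median of all genes to 0.16 for the fraction at SD7 and to -0.11 for the input.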
